A study of Mus musculus with 6 samples.

Results

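Glucose uptake, glycolysis and lactate metabolism were followed through 10 genes in olfactory epithelium of Harlequin mice. They were the glucose transporter Slc2a1, the hexokinases Hk1 and Hk2, the phosphofructokinases Pfkl, Pfkm and Pfkp, the aldolase Aldoc, the pyruvate kinase Pkm and the lactate dehydrogenase subunits Ldha and Ldhb. A probe set was taken when the platform annotation gave exactly 1 of these symbols for it, which gave 21 of 45101 probe sets and 10 of 18193 genes. RNA came from tissue dissected from 3 hemizygous mutants (Hq/Y, labelled as strain B6CBACAw-J/A-Pdcd8-Hq/J) and 3 littermate controls (+/Y, labelled as strain B6CBACa), all males at 6 months of age. For all of the mice the age at purchase is given as 13 weeks. The mutation is carried by every cell of the mouse, and each animal gave 1 array. The strain names in the labels differ, although the controls are labelled as littermates. Any strain difference between the groups cannot be told apart from the genotype.

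Glycolysis breaks glucose down to pyruvate and yields ATP without oxygen. Glucose enters through transporters such as GLUT1, hexokinase traps it as glucose 6-phosphate, phosphofructokinase commits it to the pathway, and pyruvate kinase makes the final ATP. Lactate dehydrogenase converts pyruvate to lactate and regenerates NAD+, and its A subunit favours lactate formation while its B subunit is the heart-type form. Harlequin mice carry a hypomorphic allele of Aifm1, formerly Pdcd8, whose product is needed for normal amounts of respiratory complex I. Cells with a failing respiratory chain can draw more of their ATP from glycolysis, so the comparison asked whether transcripts of these genes were higher in the mutants.

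Several of these genes are textbook targets of the hypoxia-inducible factors HIF-1 and HIF-2, which bind elements whose core reads ACGTG or GCGTG. Only the ACGTG form was counted here. RefSeq promoter windows (build GRCm38.p6, from 250 bases before to 50 bases after a start site) were found for all 10 genes, 17 windows in all. ACGTG was searched on both strands, where it appears as CACGT on the printed strand when it lies on the other, and overlapping matches, as in CACGTG, were counted as 1 place. It occurred in 8 of the 17 windows, or 47.1%, against 19.6% of all 32851 windows of that length. By gene it occurred in 7 of 10, against 21.8% of 27025 genes. These shares by gene are not like for like, since the members had more windows per gene, 17 for 10 against 32851 for 27025. The upstream window of Ldha held 3 places, starting 145, 48 and 34 bases before the start site, and 0.414% of all windows held as many. Ldhb, Pfkl and Pfkp held 0 places of ACGTG. Their windows did hold the letters GCGTG, which were not counted, so they are not shown to lack a HIF core. Windows of 4 genes are shown, because Ldha and Ldhb encode partner subunits, Slc2a1 is the gate of the pathway and Pfkl had the highest difference between genotypes. Capitals mark ACGTG or its reverse complement CACGT, read 5′ to 3′ along the gene's strand. A match describes letters in a window and was not tested as a binding site.
Ldha, chr7:46845554-46845853 (+ strand): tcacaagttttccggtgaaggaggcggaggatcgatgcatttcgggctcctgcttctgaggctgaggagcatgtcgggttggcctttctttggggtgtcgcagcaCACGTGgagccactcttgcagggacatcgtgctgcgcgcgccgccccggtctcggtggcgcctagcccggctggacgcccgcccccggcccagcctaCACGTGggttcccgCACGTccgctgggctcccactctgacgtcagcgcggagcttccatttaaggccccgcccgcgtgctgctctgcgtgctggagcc
Ldhb, chr6:142507908-142508207 (- strand): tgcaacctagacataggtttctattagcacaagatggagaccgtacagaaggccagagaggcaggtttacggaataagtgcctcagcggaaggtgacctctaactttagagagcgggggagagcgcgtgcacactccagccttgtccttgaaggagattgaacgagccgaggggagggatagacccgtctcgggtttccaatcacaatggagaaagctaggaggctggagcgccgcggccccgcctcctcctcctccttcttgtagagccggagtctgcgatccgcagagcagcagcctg
Slc2a1, chr4:119108495-119108794 (+ strand): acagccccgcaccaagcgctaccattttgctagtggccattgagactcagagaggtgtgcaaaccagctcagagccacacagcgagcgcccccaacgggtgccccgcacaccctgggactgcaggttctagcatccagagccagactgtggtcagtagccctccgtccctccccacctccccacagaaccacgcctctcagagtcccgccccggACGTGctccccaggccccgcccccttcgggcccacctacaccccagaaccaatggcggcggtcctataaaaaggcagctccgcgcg
Pfkl, chr10:78009758-78010057 (- strand): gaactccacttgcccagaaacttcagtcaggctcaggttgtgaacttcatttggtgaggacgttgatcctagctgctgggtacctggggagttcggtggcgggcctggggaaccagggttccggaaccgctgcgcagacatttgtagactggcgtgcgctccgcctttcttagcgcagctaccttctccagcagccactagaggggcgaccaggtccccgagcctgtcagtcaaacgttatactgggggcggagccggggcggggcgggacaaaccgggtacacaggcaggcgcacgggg

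Aifm1, the mutated gene, was lower in all 3 mutants, with a log2 difference of -2.20 (limma adjusted p = 0.0158 over 13219 genes). Without control replicate 1, 2 or 3 that adjusted p was 0.0970, 0.0616 or 0.0680 and the call was lost, while the log2 difference stayed between -2.25 and -2.17. The deposited signals had the same trimmed mean of 500 on all 6 arrays. RNA integrity, read as Gapdh signal at the 3' end over that at the 5' end, lay between 0.729 and 0.846. Most markers of the labelled tissue were bright. Mature olfactory neuron markers, 8 of 10 measured, summed to 96873 to 101136 in the mutants and 95081 to 103090 in the controls. These sums are carried by bright genes such as Omp, the olfactory marker protein, at 15891.8 to 18821.7 over the 6 arrays. Cngb1, a subunit of the olfactory transduction channel, was dim and lower in all mutants. It read 11.1, 81.8 and 49.9 against 108.4, 114.3 and 110.7 (log2 difference -1.19, limma adjusted p = 0.981). Cngb1 was the 1 marker of the 8 with an unadjusted p under 0.05, beside 4.58% of all genes. Sustentacular cell markers, 4 of 6 measured, summed to 54865 to 56521 and 54388 to 58047. In bulk tissue, fewer cells of a type and less RNA per cell cannot be told apart. Statements below use 3 mice per genotype, and log2 differences are Harlequin minus control on the scale log2(signal + 16), which understates changes of dim genes.

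None of the 10 genes passed the test between the genotypes. The limma fit over 13219 genes gave them adjusted p-values of 0.981 to 0.995, and it called 4 genes in all, 0.0303% of those tested. At an unadjusted p under 0.05 there was 1 of the 10, Pfkl, beside 4.58% of all genes. All 10 genes passed the signal limit of 61.1 at their brightest probe set. The brightest probe sets differed by a median log2 of -0.05, with 4 higher and 6 lower in Harlequin, beside a median of 0.00005 over all genes tested. The groups did not overlap for 3 of the 10, with Pfkl and Ldhb higher and Hk1 lower, where 10.4% of all genes showed no overlap. The mean log2 deviation of the 10 genes from their own means was 0.045, 0.056 and -0.066 in the mutants, against 0.0086, -0.073 and 0.030 in the controls, so the genotypes interleaved. Over 20 probe sets above the signal limit, 10 were higher and 10 lower and 0 passed at an adjusted p under 0.05, beside 0.0259% of 27022 probe sets. The exception below the limit was 1 more probe set of Pfkp, a dim one, with signals between 5.4 and 33.4.

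**Figure D1:**
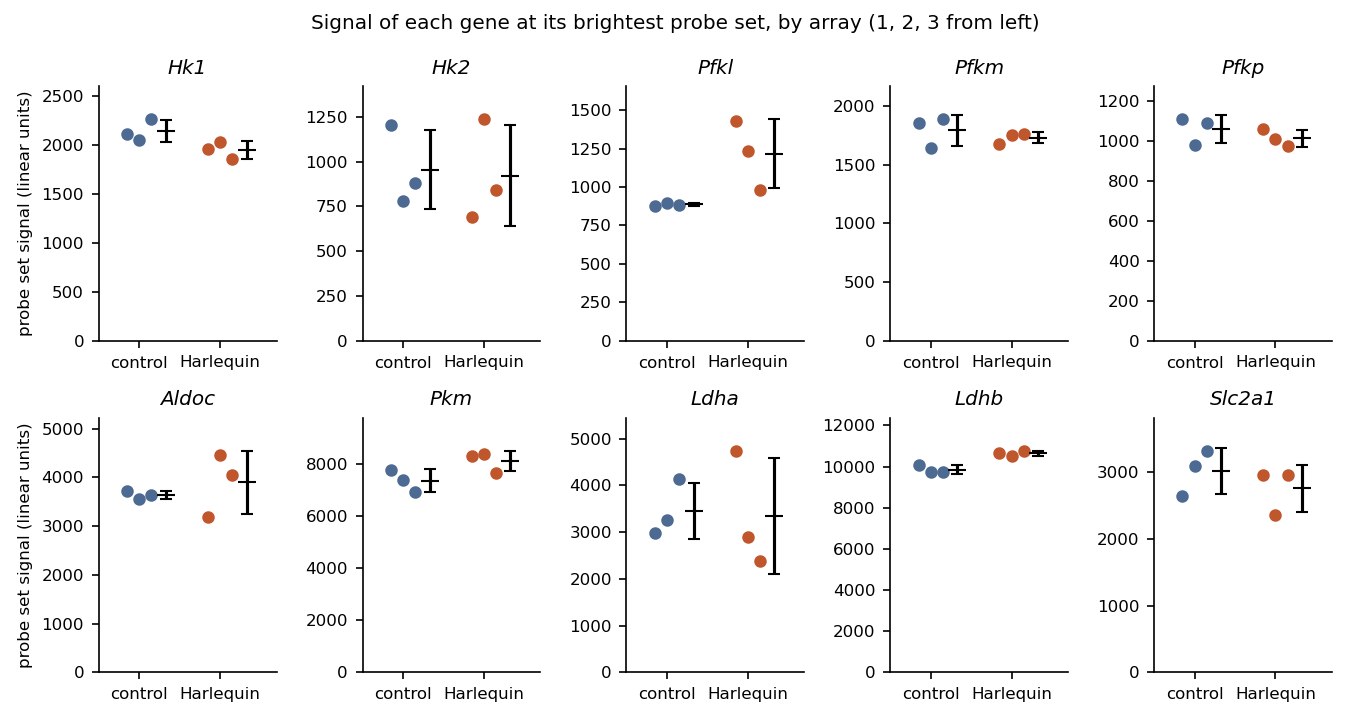
Signal of each of the 10 genes at its brightest probe set on the 3 control and 3 Harlequin arrays, in linear units on axes that start at 0, with the mean and SD as a bar beside the points. The groups do not overlap for Hk1, Pfkl and Ldhb, and Ldha and Hk2 spread widely within each genotype.

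The 3 genes of glucose uptake and phosphorylation were each lower on average in Harlequin at the brightest probe set, by log2 differences of -0.13, -0.14 and -0.07, and none passed the test. Slc2a1 encodes GLUT1, the transporter for basal glucose entry. Its brightest probe set read 2955.4, 2356.0 and 2962.9 in Harlequin and 2641.6, 3094.1 and 3321.5 in controls, and the groups overlapped. Harlequin minus control was -0.13 on the log2 scale (95% interval -0.42 to 0.16). The other probe sets of Slc2a1 differed by 0.20 and -0.02, and the mean over all 3 by 0.015. Leaving out 1 array moved the brightest between -0.22, without control replicate 1, and -0.022, without Harlequin replicate 2. Harlequin replicate 2 was the lowest mutant array at each of the 3 probe sets, at 2356.0, 1242.6 and 1019.9. Slc2a1 is abundant in the endothelium of barrier vessels, such as those of brain. Summed endothelial markers, 7 of 8 with signal above the limit, were at 1423 to 1604 in Harlequin and 1650 to 2078 in controls. The largest part of these sums came from Cldn5, a tight junction protein of endothelium. It read 611.8, 537.5 and 589.2 in Harlequin and 758.7, 959.4 and 662.6 in controls, a log2 difference of -0.43. Of the 7 markers 6 were lower on average and 0 passed the limma test. Cldn5 was the 1 with an unadjusted p under 0.05, beside 4.58% of all genes. Without overlap were 2, Cldn5 and the dim Cdh5, both lower, beside 10.4% of all genes. The part of endothelium in the Slc2a1 values was not tested.

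Hk1, the constitutive hexokinase bound to mitochondria, was slightly lower. Its brightest probe set read 1958.9, 2033.1 and 1853.3 in Harlequin and 2111.6, 2052.5 and 2263.0 in controls. All mutants lay below all controls, yet the nearest values, 2033.1 and 2052.5, lay close together. The log2 difference was -0.14 (95% interval -0.34 to 0.07), and the other probe set, which overlapped between the genotypes, gave -0.07. Hk2, the inducible hexokinase, read 689.0, 1236.7 and 840.6 in Harlequin and 1203.9, 783.1 and 879.7 in controls. Each genotype held 1 high array and 2 lower ones. The log2 difference was -0.07 (95% interval -0.60 to 0.46), and it turned to 0.12 without Harlequin replicate 1 and to 0.11 without control replicate 1. The SD of Hk2 within a genotype, 0.37 on the log2 scale, was larger than that of 87.8% of genes tested.

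Among the phosphofructokinases, which catalyse the committed step as tetramers of liver (Pfkl), muscle (Pfkm) and platelet (Pfkp) subunits, a difference appeared at 1 probe set of Pfkl. That probe set, the brightest of the gene, read 1428.8, 1237.0 and 981.3 in Harlequin and 878.0, 897.9 and 885.6 in controls. All mutants lay above all controls, and the controls were tightly grouped while the mutants spread 1.46-fold. The log2 difference was 0.43 (95% interval 0.11 to 0.76, limma adjusted p = 0.981). Its unadjusted p was under 0.05, and 1.36% of all genes had a smaller one. The other probe sets of Pfkl went the other way without passing the test. The second read 914.3, 857.8 and 718.4 against 828.0, 842.0 and 923.7, a log2 difference of -0.06, and the remaining, dim one gave -0.19. The mean over the 3 probe sets was 0.06. Leaving out 1 array moved the value of the brightest probe set between 0.31, without Harlequin replicate 1, and 0.58, without Harlequin replicate 3.

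Pfkm read 1675.7, 1750.7 and 1764.4 in Harlequin and 1851.6, 1638.0 and 1886.5 in controls. Control replicate 2 was the lowest of the 6 arrays, and the log2 difference was -0.05 (95% interval -0.26 to 0.17), or -0.11 without control replicate 2 and -0.0097 without control replicate 3. Pfkp read 1056.0, 1005.7 and 972.3 in Harlequin and 1106.6, 977.0 and 1086.3 in controls, which overlapped. Its log2 difference was -0.06 (95% interval -0.29 to 0.17), and 0.08 at its second probe set. It was -0.12 without control replicate 2 and -0.027 without control replicate 1. With the dim one included, the mean over probe sets was 0.14, the opposite sign.

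**Figure D2:**
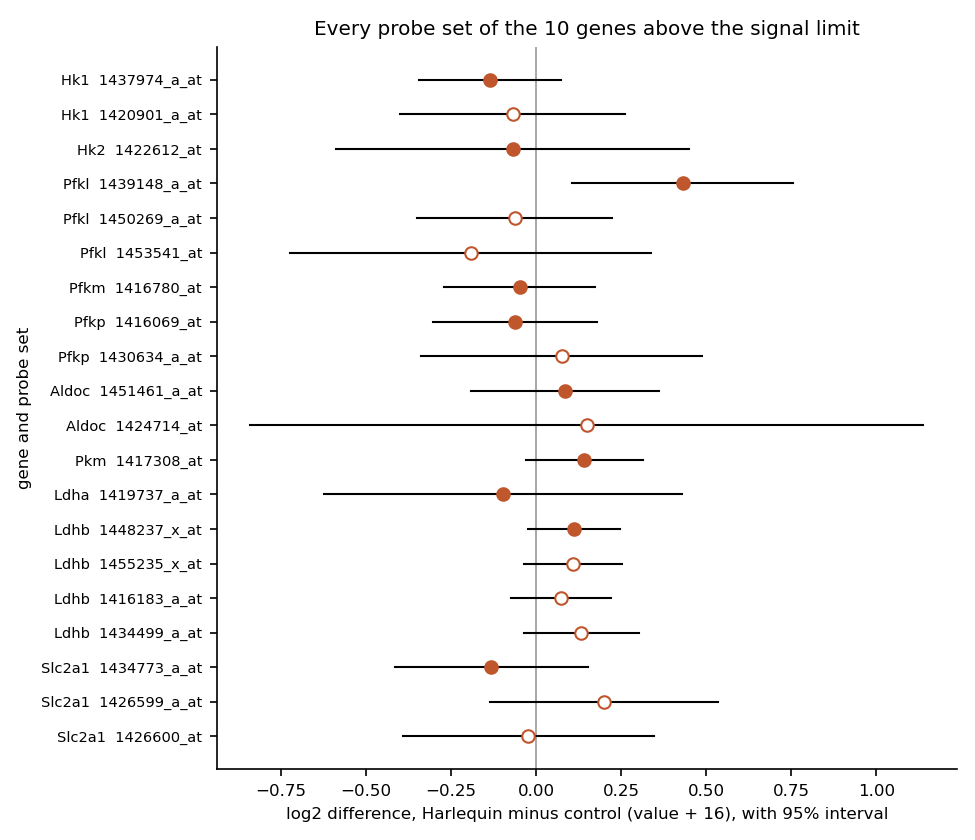
Log2 difference, Harlequin minus control, of the 20 probe sets above the signal limit, with the 95% interval from limma. Filled points are the brightest probe set of each gene. The interval lies above 0 for 1 probe set of Pfkl, at 0.11 to 0.76, and includes 0 for the other 19, among them the other Pfkl probe sets.

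Aldoc and Pkm, of the later steps, were higher on average without passing the test. Aldoc is the brain-type aldolase that splits fructose 1,6-bisphosphate. It read 3184.9, 4453.3 and 4050.0 in Harlequin and 3719.7, 3550.8 and 3640.4 in controls. The mutants lay on both sides of the closely spaced controls, with Harlequin replicate 1 the lowest of all arrays and replicate 2 the highest. The log2 difference was 0.09 (95% interval -0.20 to 0.37), and it turned to -0.018 without Harlequin replicate 2. Aldoc is an astrocyte gene in brain, and the astrocyte and olfactory bulb markers summed to 12041 to 15295 in Harlequin and 12173 to 14928 in controls. Aqp4, a water channel that is not confined to astrocytes, gave most of that sum, which is therefore no measure of astrocytes. Gfap, the defining filament protein of astrocytes, was dim at 56.3 to 96.9. Of the 7 markers 0 passed the limma test. Those with an unadjusted p under 0.05 were Eomes, higher by 0.57, and Reln, lower at -0.52, both genes of olfactory bulb neurons. Both were also without overlap. Over all genes 4.58% had such a p and 10.4% were without overlap. The part of these cells in the Aldoc values was not tested. Pkm, the pyruvate kinase of most tissues, read 8292.6, 8366.3 and 7658.9 in Harlequin and 7770.3, 7366.2 and 6905.6 in controls. Only Harlequin replicate 3 and control replicate 1 crossed over. Its log2 difference was 0.14 (95% interval -0.03 to 0.31, adjusted p = 0.981), and it lay between 0.10 and 0.18 with any 1 array left out. The annotation used here gives the gene only, so the M1 and M2 splice forms of Pkm were not told apart.

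The lactate dehydrogenase subunits differed widely in their spread within a genotype. Ldhb read 10664.8, 10518.7 and 10756.7 in Harlequin and 10096.3, 9712.8 and 9736.7 in controls at its brightest probe set. All mutants lay above all controls. The means were 10647 ± 120 and 9849 ± 215 (SD, n = 3), a log2 difference of 0.11 (95% interval -0.02 to 0.25, adjusted p = 0.981), or 1.08-fold. All 4 probe sets of Ldhb were higher in Harlequin, by 0.07 to 0.13, and at 3 of them the groups did not overlap. These probe sets measure the same RNA on the same arrays and are no independent evidence. Leaving out 1 array kept the difference between 0.10 and 0.13. The SD of Ldhb within a genotype, 0.025, was larger than that of 0.197% of genes, whose median SD was 0.18. Because limma shares the spread among genes of like brightness, the interval of Ldhb is wider than its own arrays alone would give.

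Ldha read 4740.9, 2892.1 and 2388.7 in Harlequin and 2977.7, 3260.8 and 4130.2 in controls. The highest and the lowest of all 6 arrays were both mutants, 1.98-fold apart, and the controls lay between them. Ldha thus gave a log2 difference of -0.10 (95% interval -0.64 to 0.45). It moved from -0.38 without Harlequin replicate 1 to 0.11 without Harlequin replicate 3. Its SD within a genotype, 0.40, was larger than that of 89.7% of genes.

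Ldha had the largest SD over the 6 arrays among the 10 genes (0.36), and other genes with nearly the same pattern were sought over all genes tested. Likeness was the root mean square difference of log2 deviations from each gene's mean over the 6 arrays. The nearest were Krt7, a keratin of simple and glandular epithelia (0.037), Tm4sf1, a membrane protein of the tetraspanin-like L6 family (0.057), and Inhbb, the inhibin beta B subunit (0.080). Krt7 read 1444.4, 808.5 and 694.1 in Harlequin and 896.2, 948.2 and 1216.5 in controls. Like Ldha, it was highest in Harlequin replicate 1, next in control replicate 3 and lowest in Harlequin replicate 3. Genes of motile cilia, which mark respiratory-type ciliated cells, were then listed after these values had been seen. The 14 of 15 measured had mean deviations of 0.29, -0.096 and -0.30 in the mutants and 0.010, -0.096 and 0.19 in the controls. Ldha itself deviated by 0.52, -0.19 and -0.47 in the mutants and by -0.15, -0.021 and 0.32 in the controls. Summed, they ranged from 16336 to 23301 among the mutants and from 18724 to 21632 among the controls. The part of these cells in the Ldha values was not tested.

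**Figure D3:**
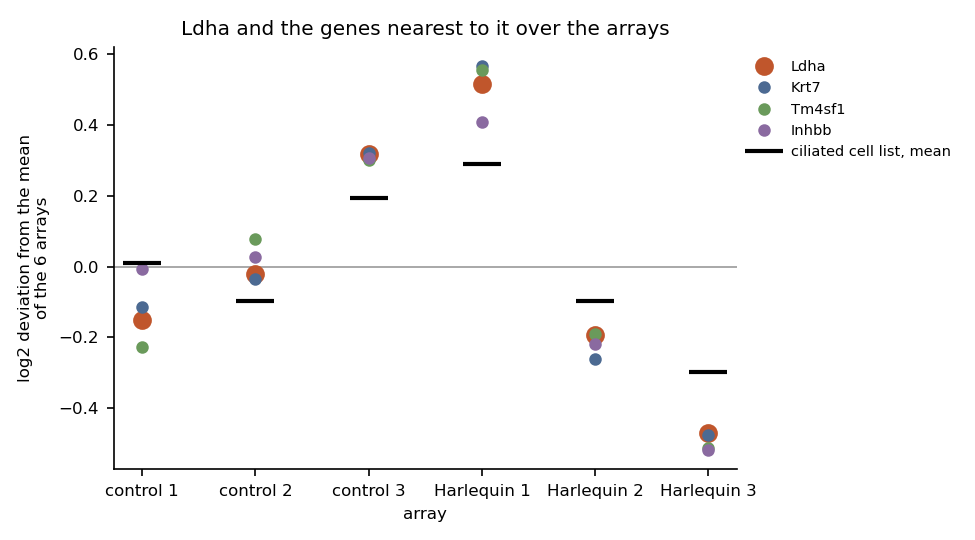
Log2 deviation from the mean of the 6 arrays for Ldha, for the 3 genes nearest to it and for the mean of 14 motile cilia genes (bars), by array. All are highest in Harlequin replicate 1, with Ldha at 0.52, and lowest in Harlequin replicate 3, with Ldha at -0.47. For the cilia genes this holds for the mean and not for each gene, and Foxj1 is highest in control replicate 2, at 1837.6. The 3 genes were picked for their likeness to Ldha, and the cilia genes were listed after the values were seen.

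Partner genes of 1 reaction were also compared within each array, which asks whether they changed unequally without setting 1 probe set's level against another's. The 6 pairs were tested with exact two-sided permutation tests, in which 3 against 3 arrays cannot go below p = 0.1. Pfkl relative to Pfkm was higher in Harlequin by a log2 of 0.48, and relative to Pfkp by 0.49. In both pairs the mutants did not overlap the controls (exact permutation p = 0.1, adjusted p = 0.3 over the 6 pairs). Both rest on the brightest probe set of Pfkl, and with the mean over probe sets they were 0.11 and -0.080. Ldha relative to Ldhb differed by -0.21 (SD 0.51 in Harlequin and 0.26 in controls; exact p = 0.5, adjusted p = 0.75). Hk1 relative to Hk2 differed by -0.07 and Pfkm relative to Pfkp by 0.01 (exact p = 0.9 for each). Aldoc relative to Aldoa, the ubiquitous aldolase, differed by 0.16 (exact p = 0.4, adjusted p = 0.75).

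**Figure D4:**
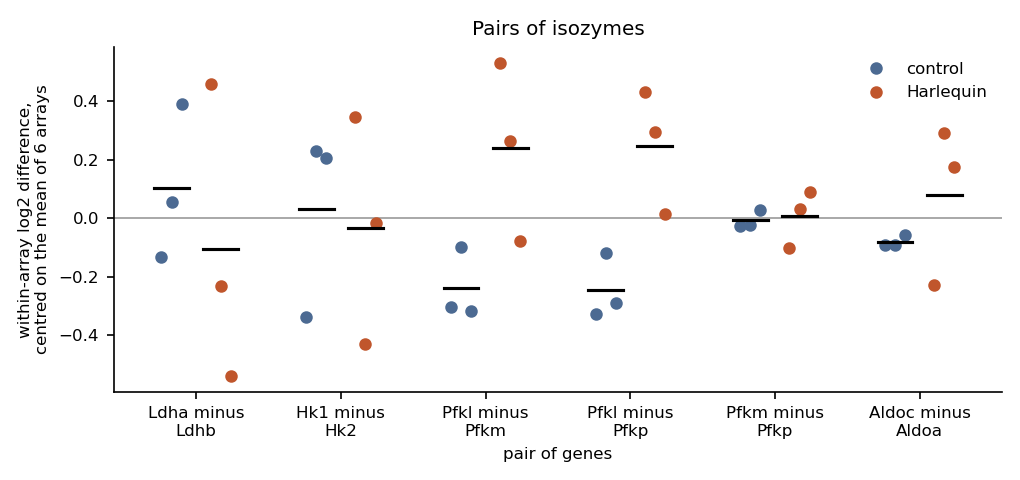
Within-array log2 difference of 6 gene pairs, centred on the mean of the 6 arrays, for control and Harlequin arrays, with group means as lines. Pfkl relative to Pfkm and to Pfkp separates the genotypes, by 0.48 and 0.49, and the other 4 pairs overlap.

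The precision of the arrays limits how large a rise at a given probe set could have gone unseen. At the brightest probe sets the upper end of the 95% interval was 1.05-fold for Hk1, 1.11-fold for Slc2a1, 1.12-fold for Pfkm, 1.13-fold for Pfkp and 1.19-fold for Ldhb. It was 1.24-fold for Pkm, 1.29-fold for Aldoc, 1.36-fold for Ldha and 1.38-fold for Hk2. At these probe sets the interval of 9 of the 10 genes ended below a 1.5-fold rise, and that of Pfkl reached 1.69-fold. Other probe sets of the same genes left more room. The upper end was 1.20-fold at the second probe set of Hk1, 1.40-fold at that of Pfkp, 1.45-fold at 1 of Slc2a1 and 2.20-fold at the dim one of Aldoc. These limits therefore belong to single probe sets and not to the genes.

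Other genes of glucose, pyruvate and NADH metabolism were taken from 10 lists with 109 genes, of which 89 were measured above the signal limit. None passed over all genes (lowest limma adjusted p = 0.981), 3 had an unadjusted p under 0.05, or 3.37% beside 4.58% of all genes, and 8 had groups that did not overlap, or 8.99% beside 10.4% of all genes. They were 45 higher and 44 lower, with a median log2 difference of 0.006. With 1 array left out, every list median given below took both signs, except those of the other carriers and of the TCA cycle.

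The other steps of glycolysis had 10 of 19 genes measured, with 7 higher, 3 lower and a median of 0.04. Gapdh, Gpi1 and Eno1 were listed but had no probe set of their own above the signal limit, so they were not measured. Hk3 and Gapdhs among the higher genes and Pklr among the lower were dim, at mean signals of 127, 100 and 102. Pgk1, the phosphoglycerate kinase that makes the pathway's first ATP, read 5235.4, 4026.1 and 4109.7 in Harlequin and 4737.4, 5234.9 and 5421.2 in controls (log2 difference -0.21). Aldoa read 9807.4, 9540.9 and 9420.3 against 10401.0, 9936.2 and 9955.7, lower in all mutants by a log2 of -0.07. Hk3, a hexokinase of blood leukocytes, differed by 0.63 at a dim probe set. Its values of 189.3, 194.7 and 88.3 overlapped the control values of 72.8, 64.9 and 152.7. Summed neutrophil markers, 8 of 8 higher on average, were at 39489 to 59411 in Harlequin and 21554 to 52689 in controls. Of these markers 0 passed the limma test. At an unadjusted p under 0.05 there were 0, beside 4.58% of all genes, and 0 were without overlap, beside 10.4% of all genes. The part of neutrophils in the Hk3 values was not tested.

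Regulators of the pathway had 5 of 10 measured genes higher and a median of -0.008. Among them the oxygen-regulated factor Hif1a differed by -0.07, its relative Epas1, which encodes HIF-2 alpha, by 0.006, and the kinase subunit Prkaa1 of AMPK, an energy sensor, by -0.16. HIF targets outside glycolysis had a median of -0.0001, with 5 higher and 5 lower. Ndrg1, a stress-responsive gene of that list, was lower in all mutants at 1467.6, 1414.7 and 1475.0 against 1604.2, 1794.1 and 1902.4 (log2 difference -0.28, limma adjusted p = 0.981). The prolyl hydroxylase Egln3 differed by -0.45, with overlap.

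Other hexose and inositol carriers had 1 of 6 measured genes higher and a median of -0.10. Slc2a13, a proton myo-inositol carrier, was lower in all mutants at 123.9, 102.4 and 103.3 against 149.9, 191.9 and 145.6 (log2 difference -0.50, adjusted p = 0.981). Carriers of lactate and pyruvate had 3 of 6 higher and a median of 0.009. The lactate exporter Slc16a3, also called MCT4, differed by 0.49 at a dim probe set, where 153.3, 103.6 and 85.9 overlapped 61.6, 65.2 and 101.5. Slc16a1, or MCT1, differed by -0.08 and the accessory protein Bsg by -0.03.

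Genes around pyruvate entry into mitochondria had a median of -0.06, with 5 of 11 higher. The kinases Pdk1, Pdk2, Pdk3 and Pdk4, which switch pyruvate dehydrogenase off, differed by -0.15, -0.15, -0.12 and 0.14. Its E3 subunit Dld was lower in all mutants, by -0.14. NADH shuttle genes, which carry reducing equivalents from the cytosol into mitochondria, had 4 of 9 higher and a median of -0.07, which was 0.032 with the mean over probe sets and 0.030 without Harlequin replicate 3. Got1, the cytosolic aspartate aminotransferase of the malate-aspartate shuttle, was higher in all mutants at 3597.2, 3727.2 and 3342.2 against 3279.9, 2874.7 and 2920.0 (log2 difference 0.23, adjusted p = 0.981). Mdh1, its cytosolic malate dehydrogenase, differed by -0.25, with 10057, 10292.5 and 12384.1 against 10954.9, 14517.4 and 13543.5. These shuttle partners thus lay on opposite sides without passing the test.

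Genes of the TCA cycle had 7 of 14 higher and a median of 0.02. Suclg1, Dlst and Sdhb were higher in all mutants by 0.14, 0.13 and 0.08. The pentose phosphate pathway, which makes NADPH, had 4 of 6 higher and a median of 0.05, with Pgd at 0.14. G6pdx was listed for that pathway but was not measured above the signal limit. Glycogen genes had 4 of 7 higher and a median of 0.11, which was -0.063 without Harlequin replicate 1, -0.019 with the mean over probe sets and 0.20 without control replicate 3. Gys1, the glycogen synthase of most tissues, differed by 0.50, where 239.7, 233.1 and 171.4 overlapped 115.9, 137.0 and 192.8.

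**Figure D5:**
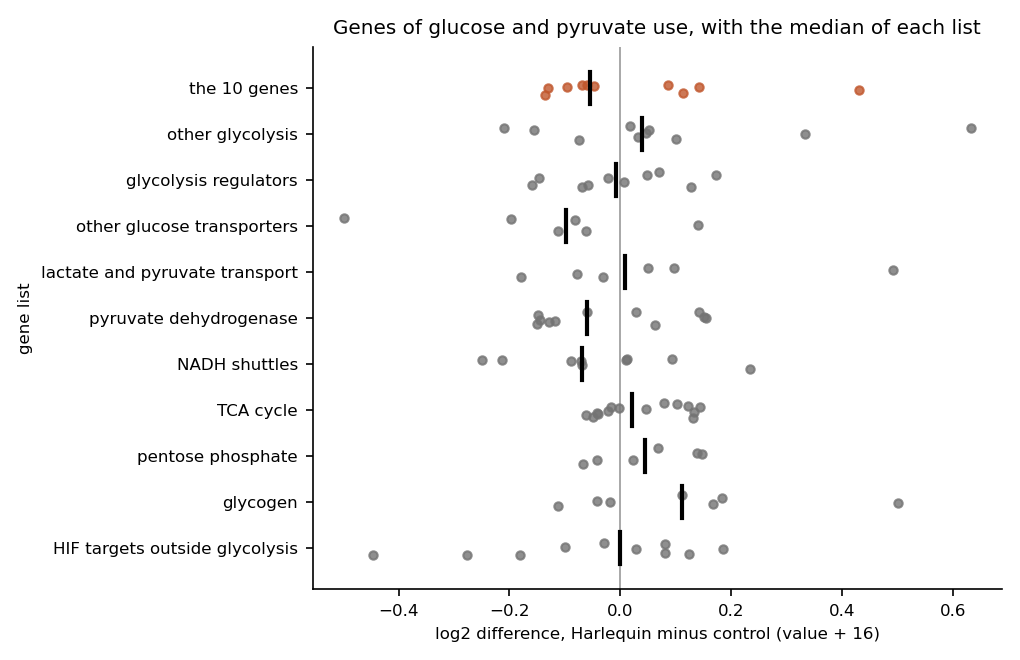
Log2 difference, Harlequin minus control, of the 10 genes and of the measured genes of 10 lists of glucose, pyruvate and NADH metabolism, 1 point per gene, with the list median as a vertical line. Medians lie between -0.10 and 0.11, and 0 of the points passed the test over all genes.

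Markers of other cells in the tissue gave the following values. Mature red cells live on glycolysis alone, although transcripts of red cell genes can come from maturing cells. The 3 measured of 9 red cell markers were higher on average in Harlequin, 2 of them without overlap, beside 10.4% of all genes. They summed to 2848 to 3709 against 638 to 1946, with Alas2, the erythroid haem enzyme, at a log2 difference of 1.52. Skeletal muscle markers were dim, with 4 of 11 above the signal limit and sums of 266 to 393 in Harlequin and 287 to 382 in controls. Glial markers, 5 of 7 measured, were all lower on average and summed to 8475 to 10433 against 10118 to 13114. Fibroblast markers summed to 19525 to 38095 against 25435 to 40116, with 7 of 7 lower on average, and macrophage markers to 4818 to 5505 against 4018 to 5035. None of these markers passed the limma test over all genes, and at an unadjusted p under 0.05 there were 3 of 3 for red cells, 0 of 4 for muscle, 2 of 5 for glia, 1 of 7 for fibroblasts and 2 of 8 for macrophages, beside 4.58% of all genes. What share these cells have in the signals of the 10 genes was not tested.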

How the data were processed

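Total RNA (3 µg per mouse) was labelled as biotinylated cRNA and hybridised to 1-colour Affymetrix arrays, per the labels' protocols. What the authors deposited is 1 linear intensity per probe set and array. The software and scaling the authors used to make them are not given in the sources used here. Members and gene lists were chosen with earlier results of these data known, with membership from textbook knowledge. The 64 control probe sets and the 932 naming several genes were left out. Each gene took its probe set with the highest mean, kept above the 40th percentile (signal 61.1). Values were analysed as log2(value + 16) with limma 3.58.1 in R 4.3.3 (lmFit, eBayes with intensity trend), two-sided, Benjamini-Hochberg over all genes tested, called under 0.05. The procedure was tested on simulated data. Intervals cover 95%. The labels call arrays of a genotype biological replicates, and the number of arrays limits precision. Named genes were all 10 members and all their probe sets, up to 4 genes with the smallest p per pathway list, the brightest markers per marker list, and the 3 genes nearest to the most variable member. Cngb1, Reln, Gfap, Epas1, Slc16a1, Pdk1, Pdk2 and Pdk4 were also named, and the motile cilia list was made, after values were seen. Other settings tried were a pseudocount of 1 or 64, the 60th percentile or no limit on signal, quantile normalization, median scaling, no intensity trend, the mean over probe sets, probe sets ending in _s_at or _x_at left out, leaving out each array in turn, and a block for the replicate number. Figures were drawn with matplotlib 3.10.9 in Python 3.11.15.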

Additional observations from a re-analysis of the deposited data

How the results depend on the processing

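Over 16 alternatives, 0 of the 10 genes, 0 of their probe sets (where they were tested singly) and 0 genes of the 10 pathway lists passed the limma test, and the lowest adjusted p of a member was 0.86. Of 160 alternative values of the members 153 kept their direction. With the mean over probe sets Pfkp turned to 0.14 and Slc2a1 to 0.015, Pfkl relative to Pfkp to -0.080 and Pfkm relative to Pfkp to -0.19. Leaving out 1 array moved Hk2 between -0.30 and 0.12, Aldoc between -0.018 and 0.22 and Ldha between -0.38 and 0.11, and, without a change of sign, Slc2a1 between -0.22 and -0.022, Pfkm between -0.11 and -0.0097 and Pfkp between -0.12 and -0.027. Of 160 alternative values of the list medians, 10 moved by more than the spread between arrays, those of the NADH shuttles, glycogen and HIF targets. Leaving out 1 array also moved Ldha relative to Ldhb between -0.49 and 0.0081, Hk1 relative to Hk2 between -0.26 and 0.13 and Pfkm relative to Pfkp between -0.028 and 0.067. The number of genes called in all, 4 in the fit reported, was 0 without an intensity trend (643 at an unadjusted p under 0.05 in limma) and 0 to 3 with 1 array left out, with 0 without control replicate 1 or 3 (702 and 696 at an unadjusted p under 0.05). Aifm1 kept a log2 difference of -2.20 without an intensity trend (limma adjusted p = 0.0887) and lay between -2.40 and -2.08 with 1 array left out. With the replicate number as a block, 0 genes passed (541 at an unadjusted p under 0.05 in limma), and Aifm1 at -2.20 had an adjusted p of 0.0605. Deviations of same-numbered arrays correlated at -0.237, -0.0298 and 0.0582 across genes, so the numbers were not taken as pairs. Median scaling shifted the median of all genes to 0.03, and the cause of the changes above was not tested. Aldoc relative to Aldoa had no value without _s_at and _x_at probe sets, since Aldoa was then not measured.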
